A study of Mus musculus with 6 samples.

Results

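The 39 genes described here encode proteins of the lysosome and of the vacuolar ATPase (V-ATPase), the proton pump that acidifies it. They were taken by gene symbol from a table of 55076 rows. No rule on their values was used, but the list was chosen with earlier results of these data known. Of the 39 genes, 13 encode V-ATPase subunits and 26 encode lysosomal enzymes, lysosomal membrane proteins and the transcription factor Tfeb. Their mRNA was measured by RNA-seq in anterior prostates (AP), taken whole at 20 weeks of age from 3 OEx and 3 Ctrl male mice. OEx mice, labelled N1ICD-Oex, carried Pbsn-Cre and a Rosa26 N1ICD/+ allele, from which Cre switches on the intracellular domain of Notch1 (N1ICD). Ctrl mice are described in the methods of the study as Rosa26 N1ICD/+ without Pbsn-Cre, whereas the labels give them as wild type. The probasin (Pbsn) promoter restricts Cre to the prostatic epithelium, so N1ICD was switched on in epithelial cells, while the RNA came from all cells of the gland. The labels do not say whether each sample was a separate animal, and p-values measure the spread between these samples.

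Lysosomes break down proteins, glycans and lipids that reach them by endocytosis and autophagy, and most of their enzymes work only at acidic pH. The V-ATPase consists of a membrane sector, V0, which carries protons, and a cytosolic sector, V1, which hydrolyses ATP. Several subunits exist as isoforms from different genes. Tfeb binds the CLEAR element found in promoters of many lysosomal and V-ATPase genes, and is held in the cytoplasm by mTORC1 when nutrients are plentiful. The luminal cells of the prostate are secretory and release enzymes into the prostatic fluid.

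The deposited values were FPKM (fragments per kilobase of exon, scaled to a library size). This library size was not the total of the reads. Between 14772005 and 18655462 reads per mouse were recovered from the values. Divided by the recovered reads, the library size behind the FPKM was 1.22 to 1.34 for OEx and 0.726 to 0.815 for Ctrl mice. In Ctrl mice, 9530053A07Rik alone took 14.2% to 22.0% of the reads, whereas the most abundant gene of OEx mice took at most 1.12%. Fold changes on the deposited scale centred near 0, with a median of -0.08 on the log2 scale over 12833 tested genes. When the values were rescaled to library totals, this median was 0.56, a shift of 0.63. Values are therefore also given relative to the median of all genes, and ratios within a mouse, which need no scaling, are given where they bear on a result. Notch1, the check of the genotype, was at 56.1 ± 19.9 FPKM in OEx and 4.69 ± 1.19 FPKM in Ctrl mice (SD, n = 3).

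Replicate 3 stood apart from replicates 1 and 2 in both groups. The Pearson r across genes was 0.991 between replicates 1 and 2 of each group and 0.950 to 0.965 between these and replicate 3. This r treats genes as points, which are not independent, and replicates 1 and 2 differed by more than counting noise. In Ctrl replicate 3, transcripts of the seminal vesicle were found, with Svs2 at 3837 FPKM against 1.09 or less in the other mice. The 11 macrophage markers summed to 442, 429 and 68.7 FPKM in OEx replicates 1, 2 and 3 and to 89.4, 93.9 and 203 FPKM in Ctrl mice. The 6 fibroblast markers summed to 249.8, 252 and 25.1 FPKM in OEx and to 54.4, 53.1 and 94.7 FPKM in Ctrl mice. Of the epithelial markers, 3 of 7 luminal and 4 of 4 basal genes were called lower in OEx mice. So were 5 of 5 smooth muscle genes, where 15.7% of all tested genes were called lower. Luminal Krt8 and Krt18 were at 277 FPKM or more in every mouse. Of the 7 luminal genes, however, all OEx mice lay below all Ctrl mice for 5 and above them for 2. The 7 genes summed to 3252 to 6334 FPKM in OEx and 16909 to 20682 FPKM in Ctrl mice. In whole tissue, fewer cells of a type and less RNA per cell cannot be told apart.

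All 39 genes had a mean of at least 1 FPKM and were tested with limma on log2(FPKM + 1). A gene was called with a fold change over 2 and an FDR under 0.05. In OEx mice, 11 of the 39 genes were called lower, or 28.2%, where 15.7% of all tested genes were. Ctss, the gene of cathepsin S, was called higher, and 12.9% of all tested genes were. The 11 lower genes were 7 of the 13 V-ATPase subunits (Atp6v0a1, Atp6v0b, Atp6v0d1, Atp6v0e, Atp6v1e1, Atp6v1f and Atp6v1g1) and 4 enzymes (Ctsd, Gla, Hexa and Gusb). Without the fold criterion, 21 genes were lower against 36.5% of all tested genes, and 6 were higher against 30.7%. For 20 genes all 3 OEx mice lay below all 3 Ctrl mice, as for 38.9% of all tested genes, for 8 genes all lay above, as for 33.4%, and for 11 genes the groups overlapped. The exact permutation test over the 20 ways to assign 3 of 6 mice gives a two-sided p of 0.1 where groups do not overlap, the smallest it can give.

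How many genes were called depended on the scaling between mice, although no called gene changed sign on library totals. On library totals, limma called 0 of the 39 genes lower, where 4.58% of all tested genes were, with 9 lower and 17 higher at an unadjusted p under 0.05. It called 6 genes higher, where 30.5% of all tested genes were, namely Lamp2, Scarb2, Ctsb, Ctsh, Ctss and Tpp1. Measured from the median of all genes, the median of the V-ATPase genes lay at -0.96 on the deposited scale and at -0.87 on library totals. For the other 26 genes it lay at -0.02 and 0.09. Under both scalings, 12 of the 13 V-ATPase genes lay below the median of all genes. More than 1 below that median on the log2 scale were 9 of the 39 genes on the deposited scale and 7 on library totals, the latter being Ctsd, Gla, Gusb, Atp6v0d1, Atp6v0e, Atp6v1e1 and Atp6v1g1. Of the 100 other pathway genes tested, 15 and 12 lay that far below. The share of all tested genes this far below the median is not given here, so these counts only describe the genes. Lower and higher are used below for the deposited scale.

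**Figure D1:**
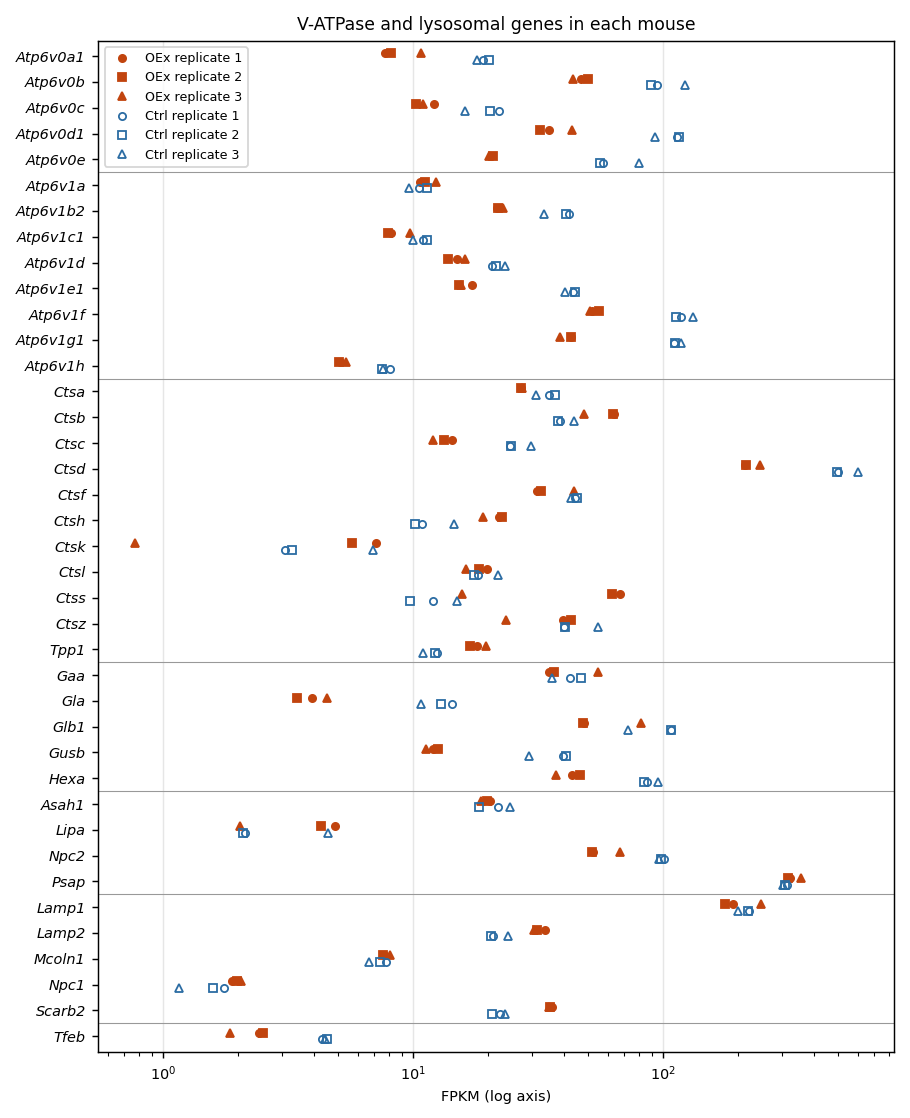
FPKM (log axis) of the 39 genes in each of the 3 OEx (filled) and 3 Ctrl (open) mice, with circles, squares and triangles for replicates 1, 2 and 3 and lines between gene groups. For 12 of the 13 V-ATPase genes in the upper groups the OEx mice lay below the Ctrl mice, whereas OEx replicate 3 lay apart from the other OEx mice for Ctss and Ctsk.

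Promoters were examined for the core of the CLEAR element, because it is the site read by Tfeb in genes of this kind. RefSeq promoters (build GRCm38.p6, 250 bases before to 50 after the start, both strands) were matched for 31 of the 39 genes. The core TCACGTGA was found in 7 of 31 genes, or 22.6%, and in 1.12% of 27025 genes with a promoter in the table. Its inner E-box CACGTG, which is part of each core match, was found in 41.9% of the 31 genes and in 8.09% of all genes. The motif GTGGGAA, bound by RBPJ, the DNA-binding partner of N1ICD, was found in Atp6v0b and Atp6v1d, or 6.45%, against 7.25% of all genes. A match is a description of the letters and not a bound site. Stretches around the core are shown for the 4 genes with a core that were called lower (Ctsd, Atp6v0d1, Atp6v0e and Gla) and for the 3 that were not called (Ctsa, Mcoln1 and Atp6v1a), with the core in capitals, 5′ to 3′ on the strand of the gene.
Ctsd, chr7:142387873-142387972, minus strand: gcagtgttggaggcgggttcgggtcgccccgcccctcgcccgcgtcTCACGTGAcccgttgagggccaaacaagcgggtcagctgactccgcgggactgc
Atp6v0d1, chr8:105566050-105566079, minus strand: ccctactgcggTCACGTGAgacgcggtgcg
Atp6v0e, chr17:26676387-26676416, plus strand: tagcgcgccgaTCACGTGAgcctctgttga
Gla, chrX:134601147-134601255, minus strand: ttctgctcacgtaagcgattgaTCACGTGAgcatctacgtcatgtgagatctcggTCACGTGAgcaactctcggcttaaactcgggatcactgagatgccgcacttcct
Ctsa, chr2:164833749-164833795, plus strand: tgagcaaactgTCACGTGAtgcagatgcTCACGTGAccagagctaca
Mcoln1, chr8:3500427-3500518, plus strand: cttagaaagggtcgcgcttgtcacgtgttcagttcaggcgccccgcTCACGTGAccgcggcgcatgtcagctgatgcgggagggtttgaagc
Atp6v1a, chr16:44139338-44139437, minus strand: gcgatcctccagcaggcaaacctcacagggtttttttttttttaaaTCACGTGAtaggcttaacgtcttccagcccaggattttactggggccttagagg
Genes with the core thus ranged from Atp6v0e, which had the lowest log2 fold change of the 39 genes, at -1.59, to Atp6v1a, at 0.11.

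In the V0 sector, all 5 genes were lower in every OEx mouse than in every Ctrl mouse, as for 38.9% of all tested genes. Of the 5, 4 were called lower, or 80%, where 15.7% of all tested genes were. Atp6v0e, a small membrane subunit, was at 20.6, 20.9 and 20.1 FPKM in OEx mice and at 57.7, 56.2 and 79.9 FPKM in Ctrl mice. Its log2 fold change was -1.59 (SE 0.14, limma FDR 0.00014), and OEx mice hardly differed among themselves. The gene lies on chromosome 17 at 26663231 to 26699647 of GRCm38, the build of all gene positions here. Atp6v0d1, the subunit that joins the rotor of V0 to that of V1 (chromosome 8, 105524465 to 105566047), was at 34.9, 32.2 and 43.3 FPKM in OEx and at 114.1, 116 and 92.8 FPKM in Ctrl mice. Its log2 fold change was -1.53 (SE 0.14, limma FDR 0.000162), with a wide gap between the groups.

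The other V0 genes showed smaller differences. Atp6v0b, a subunit of the proton-carrying ring (chromosome 4, 117884326 to 117887333), was at 46.8, 50.2 and 43.8 FPKM in OEx and at 94.3, 89.9 and 122 FPKM in Ctrl mice, which gave a log2 fold change of -1.09 (SE 0.13, limma FDR 0.000477). Its exons overlap an antisense gene on the opposite strand, and whether the counting used strand is not given in the sources used here. Atp6v0a1, an isoform of the large a subunit (chromosome 11, 101009452 to 101063719), was at 7.72, 8.15 and 10.7 FPKM in OEx and at 19.0, 20.2 and 18.0 FPKM in Ctrl mice, which gave a log2 fold change of -1.03 (SE 0.13, limma FDR 0.000539). Both genes lay close to the fold criterion, and Atp6v0b was no longer called without Ctrl replicate 3 (log2 fold change -0.96). Atp6v0a1 was no longer called without Ctrl replicate 2, OEx replicate 1 or OEx replicate 2, where its log2 fold change was -0.95 at the smallest. Atp6v0c, the main subunit of the ring, had a log2 fold change of -0.75 with a limma FDR of 0.00236, below the fold criterion. It has processed copies in the genome, so its level is uncertain.

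In the V1 sector, 3 of 8 genes were called lower, or 37.5% against 15.7% of all tested genes. A further 4 passed the FDR alone and Atp6v1a passed neither. Without the fold criterion, 7 of the 8 were thus lower, against 36.5% of all tested genes. Atp6v1g1, a subunit of the peripheral stalk (chromosome 4, 63544772 to 63550750), was at 42.7, 43.0 and 38.9 FPKM in OEx and at 110.4, 111.5 and 118.5 FPKM in Ctrl mice. Its log2 fold change was -1.43 (SE 0.08, limma FDR 3.58e-05), the lowest FDR of the 39 genes. Atp6v1e1, its partner in the stalk (chromosome 6, 120794305 to 120822793), was at 17.3, 15.2 and 15.5 FPKM in OEx and at 43.6, 44.3 and 40.4 FPKM in Ctrl mice, with a log2 fold change of -1.36 (SE 0.09, limma FDR 4.56e-05). In both stalk genes the mice of a group lay close together. Atp6v1f, a subunit of the central rotor (chromosome 6, 29467718 to 29470512), was at 52.0, 55.4 and 51.0 FPKM in OEx and at 118.1, 112.7 and 132 FPKM in Ctrl mice, with a log2 fold change of -1.18 (SE 0.09, limma FDR 8.5e-05).

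The catalytic head of V1 is built from A and B subunits in equal numbers, and their genes did not move alike. Atp6v1a, the gene of the A subunit, was at 10.7, 11.2 and 12.4 FPKM in OEx and at 10.5, 11.4 and 9.60 FPKM in Ctrl mice. The groups overlapped, and the log2 fold change was 0.11 with a 95% interval from -0.12 to 0.34. Atp6v1b2, the gene of the B subunit, was at 21.6, 22.0 and 22.9 FPKM in OEx and at 42.1, 40.8 and 33.5 FPKM in Ctrl mice, which gave a log2 fold change of -0.78 with a limma FDR of 0.000774. The smaller differences were those of Atp6v1d of the central rotor, at -0.52, of the regulatory Atp6v1h, at -0.50, and of Atp6v1c1, at -0.30, each with an FDR under 0.05. On library totals, the log2 fold changes of these 3 genes were 0.22, 0.18 and 0.41, against 0.56 for the median of all genes.

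**Figure D2:**
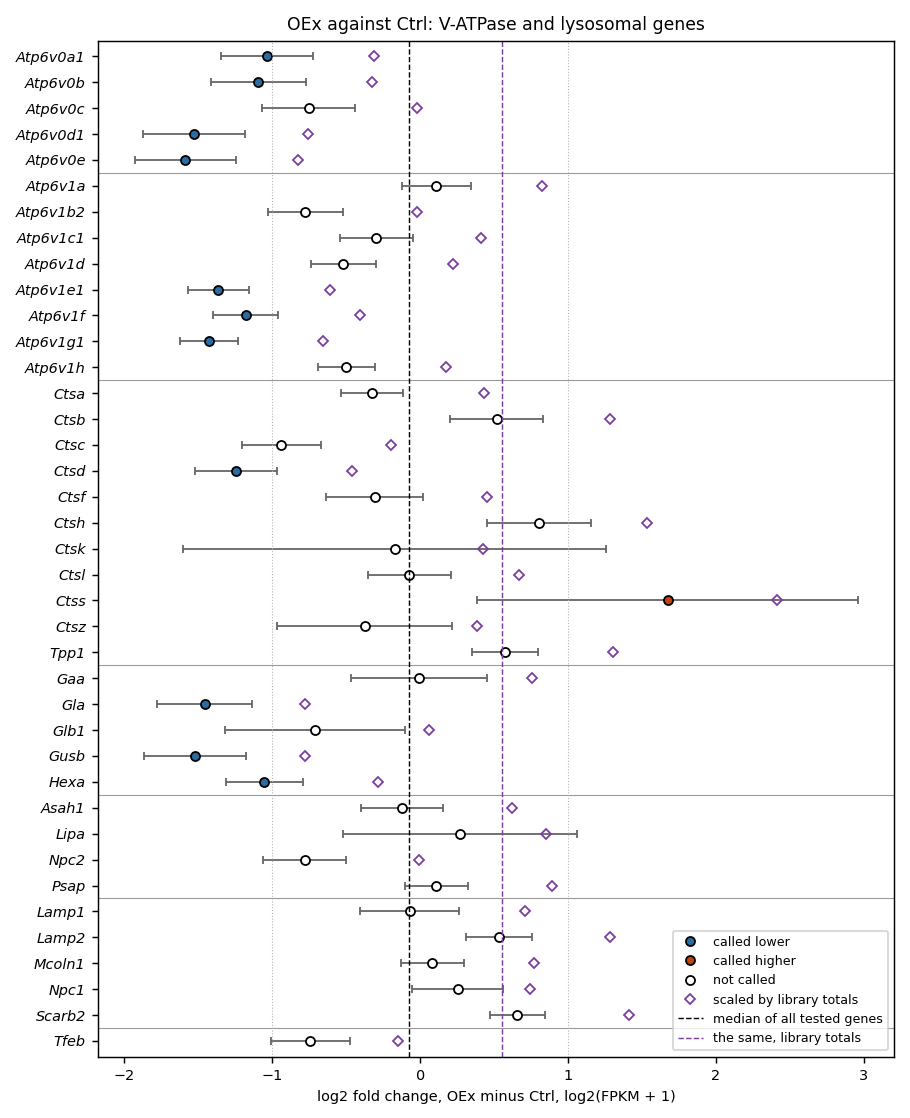
Log2 fold change of the 39 genes between OEx and Ctrl mice (circles, with 95% intervals from limma, filled where called), and the same from values scaled to library totals (diamonds), with dashed lines at the medians of all tested genes. The V-ATPase genes in the upper groups lay left of their dashed line under both scalings except Atp6v1a, whereas the other genes were spread to both sides.

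Ratios within a mouse were compared after these values had been seen, since they do not depend on the scaling. The ratio of Atp6v1e1 to Atp6v1a was 1.41 ± 0.186 in OEx and 4.08 ± 0.158 in Ctrl mice (SD, n = 3). For Atp6v1g1 it was 3.66 ± 0.457 and 10.9 ± 1.31, and for Atp6v0d1 it was 3.21 ± 0.312 and 10.2 ± 0.572. The ratio of the B to the A subunit, Atp6v1b2 to Atp6v1a, was 1.95 ± 0.0871 in OEx and 3.69 ± 0.265 in Ctrl mice. In each of these ratios the groups did not overlap, and the exact permutation test gave a two-sided p of 0.1, the smallest it can give. Of the 13 V-ATPase genes, 12 had a log2 fold change below 0, and the denominator, Atp6v1a, did not. The choice of pairs thus favoured separation, so the test adds no support. The ratios describe only how far these genes moved apart from Atp6v1a. Some lists of cell type markers, but not all, had lower sums in OEx mice. Basal markers summed to 6.79 to 15.9 FPKM in OEx and 212 to 249.4 FPKM in Ctrl mice. Luminal markers summed to 3252 to 6334 and 16909 to 20682 FPKM, and smooth muscle markers to 351 to 418 and 1043.5 to 2245 FPKM. Endothelial markers, which were low, summed to 5.83 to 7.02 and 11.4 to 16.6 FPKM. The luminal genes did not all fall. Of the 7, all OEx mice lay below all Ctrl mice for 5 and above them for 2, and 3 were called lower. Fibroblast sums overlapped between the groups, at 25.1 to 252 FPKM in OEx and 53.1 to 94.7 FPKM in Ctrl mice. So did macrophage sums, at 68.7 to 442 and 89.4 to 203 FPKM. None of the 16 basal, luminal and smooth muscle markers was at 0 in any mouse. The part of these cell types in the V-ATPase result was not tested.

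The make-up of the a subunit also separated the groups. The a subunit anchors the stator of the pump and directs it to different membranes, and its isoforms come from Atp6v0a1, Atp6v0a2, Tcirg1 (the a3 isoform, known from osteoclasts) and Atp6v0a4. Their FPKM summed to 39.8 ± 2.25 in OEx and 38.2 ± 1.83 in Ctrl mice (SD, n = 3, exact permutation p = 0.4). Within this sum, Tcirg1 took 58.2%, 59.3% and 46.4% in OEx mice and 23.4%, 22.5% and 28.9% in Ctrl mice. The share of Atp6v0a1 was 19.1%, 19.6% and 28.8% in OEx mice and 48.8%, 50.9% and 49.9% in Ctrl mice. Tcirg1 was the larger share in every OEx mouse and Atp6v0a1 in every Ctrl mouse (exact permutation p = 0.1 for each share). Tcirg1 itself was called higher, at 23.5, 24.7 and 17.3 FPKM in OEx and 9.10, 8.92 and 10.4 FPKM in Ctrl mice, with a log2 fold change of 1.11 (SE 0.15, limma FDR 0.000698). Replicate 3 was the lowest OEx and the highest Ctrl mouse for Tcirg1, as for the macrophage marker sum (442, 429 and 68.7 FPKM in OEx and 89.4, 93.9 and 203 FPKM in Ctrl mice), whose part in its level was not tested. The call was kept with any mouse left out.

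The other subunits with isoforms kept the same main isoform in all mice. The e subunit genes fell together, since Atp6v0e2 was also called lower (log2 fold change -1.09, limma FDR 0.000311). Atp6v1g1 remained the main G isoform, with 84.2% to 90.2% of the G subunit FPKM in OEx and 93.4% to 95.5% in Ctrl mice. The C subunit came almost wholly from Atp6v1c2, with 96.5% to 97.3% of its FPKM over all 6 mice. Atp6v1c2 was at 223, 228 and 352 FPKM in OEx and at 343, 342 and 324 FPKM in Ctrl mice, which gave a log2 fold change of -0.36 with a limma FDR of 0.126, and its groups overlapped. Atp6v0d1 and Atp6v1b2 gave at least 98.5% of their subunits in every mouse. Atp6v0a4, Atp6v0d2, Atp6v1b1, Atp6v1e2 and Atp6v1g3 were below the filter. The accessory subunits went apart, as Atp6ap2, also known as the prorenin receptor, was called higher with a log2 fold change of 1.33, while Atp6ap1 had one of -0.53. Their ratio, Atp6ap2 to Atp6ap1, was 1.01 ± 0.0964 in OEx and 0.268 ± 0.0287 in Ctrl mice (SD, n = 3, exact permutation p = 0.1).

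**Figure D3:**
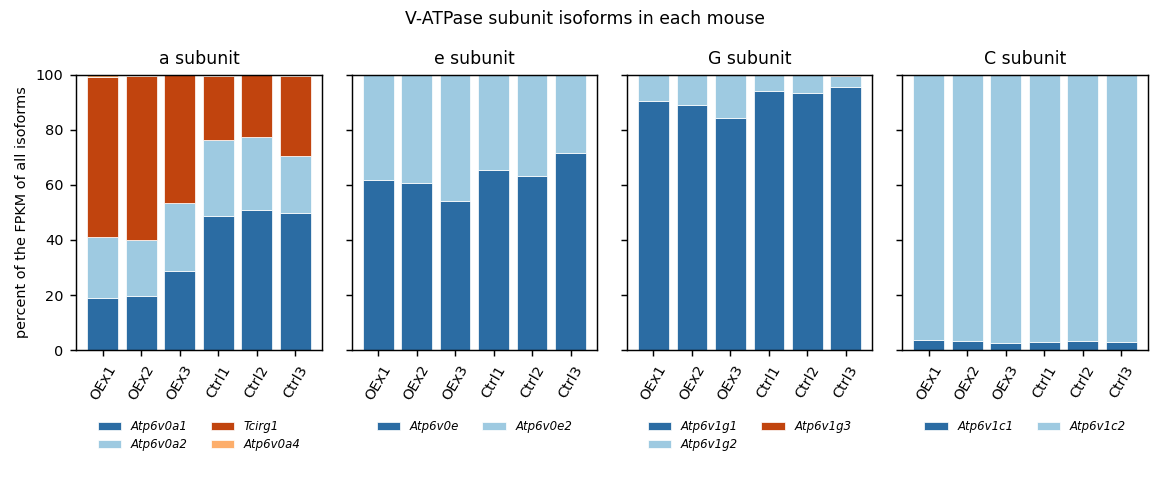
Share of each isoform in the FPKM of its V-ATPase subunit, in percent, in each of the 6 mice, for the a, e, G and C subunits. In the a subunit, Tcirg1 (red) was the larger share in OEx mice and Atp6v0a1 (dark blue) in Ctrl mice, whereas the C subunit was Atp6v1c2 in all mice.

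The proteases did not move one way. Of the 11 genes, Ctsd was called lower and Ctss higher, or 9.09% each, where 15.7% and 12.9% of all tested genes were. A further 5 passed the FDR alone, with Ctsa and Ctsc lower and Ctsb, Ctsh and Tpp1 higher. Without the fold criterion, 3 of the 11 were thus lower and 4 higher, against 36.5% and 30.7% of all tested genes. Ctsd encodes cathepsin D, the main aspartic protease of lysosomes, and had the highest mean FPKM of the 39 genes over the 6 mice and in Ctrl mice. It was at 213, 216 and 244 FPKM in OEx and at 501, 496 and 604 FPKM in Ctrl mice, with a log2 fold change of -1.24 (SE 0.12, limma FDR 0.00016). Its exons on chromosome 7 (142375911 to 142388038) share 808 bases with Gm49369 on the same strand. The ratio of Ctsd to Psap, an abundant gene that did not pass the FDR, was chosen after these values had been seen. It was 0.675 ± 0.0104 in OEx and 1.74 ± 0.229 in Ctrl mice (SD, n = 3, exact permutation p = 0.1).

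The make-up of the cathepsin mRNA also separated the groups. The 10 cathepsin genes summed to 506, 504 and 451 FPKM in OEx and to 728, 722 and 865 FPKM in Ctrl mice. Ctsd took 42.1%, 42.8% and 54.1% of this sum in OEx mice and 68.8%, 68.7% and 69.8% in Ctrl mice. The cysteine protease genes Ctsb and Ctsh took larger shares in OEx mice, at 10.7% to 12.6% against 5.10% to 5.30% for Ctsb and at 4.21% to 4.51% against 1.41% to 1.68% for Ctsh. The groups did not overlap in any of these 3 shares. Shares of 1 sum depend on each other, so a smaller share of Ctsd raises the others. The share of Ctsl was also larger in every OEx mouse, with means of 3.73% and 2.48%. So was that of Ctsa, with means of 5.58% and 4.50%, and that of Ctss, whereas that of Ctsc was smaller. Ctsb was at 63.7, 63.2 and 48.4 FPKM in OEx and at 38.6, 38.2 and 44.1 FPKM in Ctrl mice, and Ctsh was at 22.1, 22.7 and 19.0 FPKM and at 10.9, 10.2 and 14.5 FPKM. Replicate 3 was thus the lowest OEx and the highest Ctrl mouse for both genes, as it was for the macrophage marker sum (442, 429 and 68.7 FPKM in OEx and 89.4, 93.9 and 203 FPKM in Ctrl mice), whose part in their levels was not tested. On the FPKM scale, Ctsb had a log2 fold change of 0.52 (limma FDR 0.0118) and Ctsh, an aminopeptidase as well as an endopeptidase, one of 0.80 (limma FDR 0.00283). Tpp1, a tripeptidyl peptidase, was at 16.9 to 19.5 FPKM in OEx and 10.9 to 12.5 FPKM in Ctrl mice, which gave a log2 fold change of 0.57 (limma FDR 0.00165). Ctsc, which activates granule proteases, was at 12.0 to 14.3 FPKM in OEx and 24.4 to 29.7 FPKM in Ctrl mice, which gave a log2 fold change of -0.94 (limma FDR 0.000425). Ctsa, the protective protein of lysosomal sialidase and galactosidase, differed less, at -0.32 (limma FDR 0.0156).

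Ctss encodes cathepsin S, a cysteine protease best known from antigen-presenting cells (chromosome 3, 95526786 to 95556403). It was at 67.5, 62.5 and 15.7 FPKM in OEx and at 12.0, 9.73 and 15.0 FPKM in Ctrl mice, with a log2 fold change of 1.68 (SE 0.54, limma FDR 0.0293). The groups did not overlap, but OEx replicate 3 lay just above the highest Ctrl mouse. The call was lost when any mouse other than OEx replicate 3 was left out, with log2 fold changes of 1.32 to 2.33 over all 6 mice left out in turn. Macrophage markers were likewise lowest in replicate 3 among the OEx mice, with Csf1r at 13.2, 14.1 and 3.73 FPKM and C1qa at 94.1, 96.7 and 21.1 FPKM in OEx mice. In Ctrl mice, Csf1r was at 4.14, 3.53 and 5.59 FPKM and C1qa at 21.6, 22.7 and 55.2 FPKM. For these 2 markers, OEx replicate 3 was thus not above every Ctrl mouse. Of the 10 macrophage markers tested, 1 had every OEx mouse above every Ctrl mouse, as Ctss had, and 9 overlapped. Of all tested genes, 33.4% lay above in this way. The log2 fold changes of the 10 markers ran from -0.40 to 2.61. None of the 11 macrophage markers was at 0 in any mouse. Of the 10 tested, 2 (Mrc1 and Aif1) were called higher, or 20% against 12.9% of all tested genes. The ratio of Ctss to Csf1r was 4.59 ± 0.458 in OEx and 2.78 ± 0.109 in Ctrl mice, and that of Ctss to C1qa was 0.703 ± 0.0509 and 0.419 ± 0.142 (SD, n = 3, exact permutation p = 0.1 for each). The part of macrophages in the level of Ctss was not tested.

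The remaining cathepsins showed no call. Ctsk, the collagen-degrading cathepsin K, was at 7.09, 5.70 and 0.77 FPKM in OEx and at 3.07, 3.27 and 6.92 FPKM in Ctrl mice. It ranged more within the groups than between them, with a log2 fold change of -0.17 and a 95% interval from -1.60 to 1.26. The fibroblast marker Col1a1 was likewise lowest in OEx replicate 3, at 75.4, 83.7 and 6.04 FPKM in OEx and at 11.4, 11.5 and 18.9 FPKM in Ctrl mice. The part of fibroblasts in the level of Ctsk was not tested. Ctsl, Ctsf and Ctsz had log2 fold changes of -0.07, -0.31 and -0.38, with 95% intervals that included 0. For Ctsl, an antisense gene and a pseudogene share exon bases, so its level is uncertain.

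**Figure D4:**
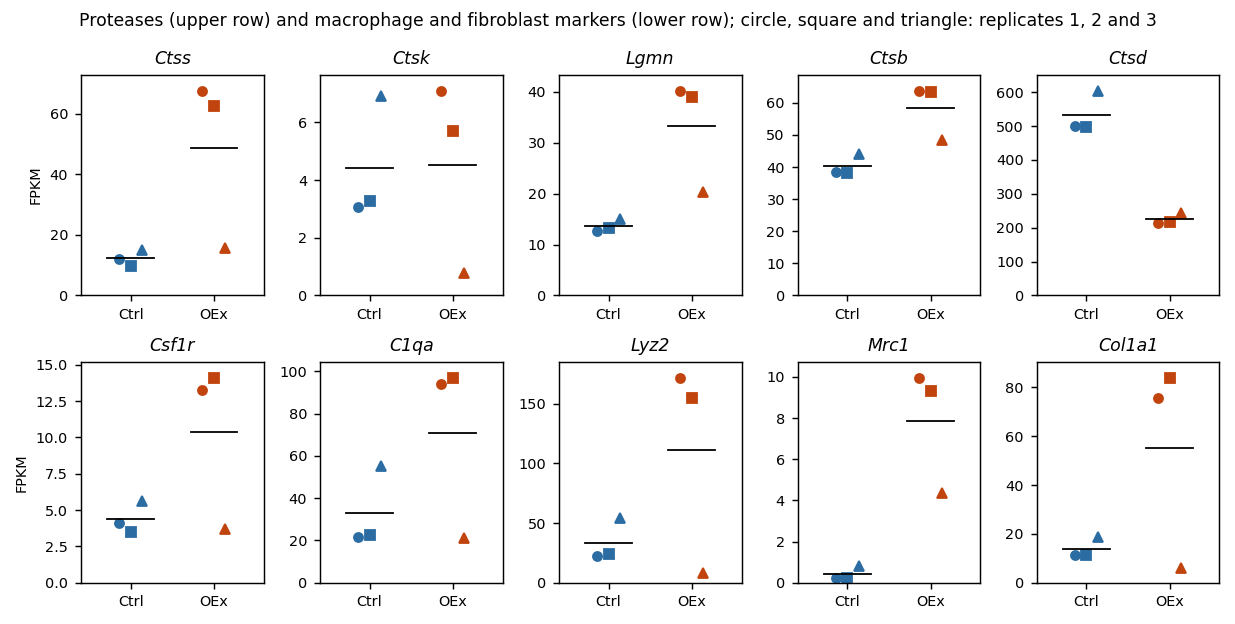
FPKM of 5 protease genes (upper row) and of 4 macrophage markers and the fibroblast marker Col1a1 (lower row) in each mouse, with circles, squares and triangles for replicates 1, 2 and 3 and lines at the group means. In OEx replicate 3 (triangles), Ctss, Ctsk and the markers lay below the other OEx mice, whereas for Ctsd the highest OEx mouse was still below the lowest Ctrl mouse.

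Among the 5 glycosidases, Gusb, Gla and Hexa were called lower, or 60% against 15.7% of all tested genes. Gusb encodes beta-glucuronidase (chromosome 5, 129989011 to 130003049) and was at 12.0, 12.6 and 11.2 FPKM in OEx and at 39.9, 41.1 and 29.0 FPKM in Ctrl mice, with a log2 fold change of -1.52 (SE 0.14, limma FDR 0.000168). Gla encodes alpha-galactosidase A (chromosome X, 134588149 to 134601125) and was at 3.95, 3.43 and 4.51 FPKM in OEx and at 14.3, 12.9 and 10.7 FPKM in Ctrl mice, with a log2 fold change of -1.46 (SE 0.13, limma FDR 0.000154). For these genes every OEx mouse was well below every Ctrl mouse, and both calls were kept with any mouse left out. Hexa, the alpha subunit of beta-hexosaminidase (chromosome 9, 59539540 to 59565109), was at 43.1, 46.6 and 37.2 FPKM in OEx and at 86.5, 84.1 and 95.4 FPKM in Ctrl mice, with a log2 fold change of -1.05 (SE 0.11, limma FDR 0.000237). It was just past the fold criterion and was not called without OEx replicate 3, at -0.97.

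Gaa and Glb1 were not called. Gaa, which degrades glycogen, was at 34.9 to 54.7 FPKM in OEx and 35.8 to 46.9 FPKM in Ctrl mice, which gave a log2 fold change of -0.01 with a 95% interval from -0.47 to 0.45. Glb1, the lysosomal beta-galactosidase, was at 48.3, 47.7 and 81.5 FPKM in OEx and at 107.6, 107.4 and 72.7 FPKM in Ctrl mice, which gave a log2 fold change of -0.71 with a limma FDR of 0.0432. Replicate 3 of either group lay on the side of the other group for Glb1, so the groups overlapped. Ratios to Gaa were likewise chosen after these values had been seen. That of Gusb was 0.298 ± 0.0804 in OEx and 0.876 ± 0.0663 in Ctrl mice. That of Gla was 0.0964 ± 0.0155 and 0.304 ± 0.0321 (SD, n = 3, exact permutation p = 0.1 for each).

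None of the 4 lipid handling genes was called by limma or, of 3 with recovered reads, by limma-voom, with 1 lower and 0 higher at an unadjusted p under 0.05. By the FDR alone the counts were also 1 lower and 0 higher, against 36.5% and 30.7% of all tested genes. Npc2, which carries cholesterol within the lysosome, was at 52.0 to 67.2 FPKM in OEx and 96.1 to 100.9 FPKM in Ctrl mice, which gave a log2 fold change of -0.78 with a limma FDR of 0.00118. Psap, the precursor of the saposins, ranked behind Ctsd over the 6 mice and first of the 39 genes in OEx mice. It was at 322, 317 and 357 FPKM in OEx and at 313, 308 and 301 FPKM in Ctrl mice. Every OEx value exceeded every Ctrl value, but the log2 fold change of 0.11 had a 95% interval from -0.10 to 0.32. Asah1, acid ceramidase, had a log2 fold change of -0.12 (interval -0.40 to 0.15). Lipa, acid lipase, was at 4.88, 4.30 and 2.03 FPKM in OEx and at 2.13, 2.08 and 4.57 FPKM in Ctrl mice, with replicate 3 of each group again near the other group.

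Of the 5 genes of lysosomal membrane proteins, 0 were called by limma, or by limma-voom on the 4 with recovered reads. By the FDR alone, 2 were higher and 0 lower, where 30.7% and 36.5% of all tested genes were. The counts at an unadjusted p under 0.05 were 0 lower and 2 higher. Lamp1, the third most abundant of the 39 genes over the 6 mice, was at 189.6, 177 and 246 FPKM in OEx and at 220.5, 218 and 199.8 FPKM in Ctrl mice, so the groups overlapped, and the log2 fold change was -0.07 with a 95% interval from -0.40 to 0.26. Lamp2, which takes part in chaperone-mediated autophagy, was at 30.5 to 33.7 FPKM in OEx and 20.4 to 23.9 FPKM in Ctrl mice, which gave a log2 fold change of 0.53 (limma FDR 0.00226). Scarb2, the receptor that sorts glucocerebrosidase, was at 35.1 to 35.8 FPKM in OEx and 20.7 to 23.4 FPKM in Ctrl mice, which gave a log2 fold change of 0.66 (limma FDR 0.000425). Every OEx mouse was above every Ctrl mouse for 3 of the 5 genes, Lamp2, Scarb2 and Npc1, as for 33.4% of all tested genes. The cholesterol exporter Npc1 and the calcium channel Mcoln1 had log2 fold changes of 0.25 and 0.08, with limma FDRs of 0.121 and 0.434.

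Tfeb itself was at 2.42, 2.51 and 1.85 FPKM in OEx and at 4.31, 4.54 and 4.45 FPKM in Ctrl mice. Its log2 fold change was -0.74 (SE 0.11, limma FDR 0.00122), below the fold criterion, and the groups did not overlap. Relative to the median of all genes, Tfeb was at -0.66 on the deposited scale and -0.70 on library totals. Its relative Tfe3 differed less, with a log2 fold change of -0.24 (limma FDR 0.0413), and Mitf was below the filter.

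Of 114 further genes of the pathway, 100 were tested, and 16 were called lower and 8 higher, where 15.7% and 12.9% of all tested genes were. The share of lower genes was thus near that of all genes. Among the hydrolases, 4 of 34 were called lower and 4 higher, or 11.8% each, again near or below those shares. Scpep1, a serine carboxypeptidase, was at 10.4, 9.09 and 11.4 FPKM in OEx and at 121, 123 and 151 FPKM in Ctrl mice, with a log2 fold change of -3.55, lower than for any of the 39 genes. Neu1, the lysosomal sialidase that forms a complex with the products of Ctsa and Glb1, had a log2 fold change of -2.21. Naglu and Acp5 were also lower, and the peptidase genes Lgmn, Ctso, Ctsw and Dpp7 were higher, with log2 fold changes of 1.16 to 1.66. Lgmn, an asparaginyl endopeptidase, was at 40.2, 39.1 and 20.4 FPKM in OEx mice, again lowest in OEx replicate 3, and was not called without OEx replicate 1. Of 15 other membrane proteins, Tmem192 was called lower, or 6.67% against 15.7% of all tested genes. None of the 6 genes of mannose 6-phosphate sorting was called by limma or limma-voom. At an unadjusted p under 0.05, 2 of them were lower and 2 higher. By the FDR alone the counts were the same, against 36.5% and 30.7% of all tested genes. Of 2 cystatins, inhibitors of cysteine cathepsins, Cstb was called lower.

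The Ragulator complex, which tethers mTORC1 to the lysosome and binds the V-ATPase, is encoded by Lamtor1 to Lamtor5. They belong to a list of regulators of lysosomal genes and mTORC1, of which 14 genes were tested. Of the 14, 4 were called lower, or 28.6% against 15.7% of all tested genes, namely Lamtor1, Lamtor2, Lamtor4 and Lamtor5. A further 2 were called higher, or 14.3% against 12.9%. Lamtor2 was at 35.6, 34.8 and 41.2 FPKM in OEx and at 152.0, 152.3 and 152.7 FPKM in Ctrl mice, with a log2 fold change of -2.01 (limma FDR 2.46e-05). Lamtor3, at -0.58, passed the FDR alone. Zkscan3, described as a repressor of lysosomal and autophagy genes, was called higher, at 12.3, 12.3 and 12.8 FPKM in OEx and at 3.72, 3.16 and 3.09 FPKM in Ctrl mice, with 1.64 as its log2 fold change (limma FDR 3.38e-05). Fnip1, a partner of folliculin, was also higher, with a log2 fold change of 1.15.

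Of 22 autophagy and fusion genes, 5 were called lower, or 22.7% against 15.7% of all tested genes, and 0 higher by limma, against 12.9%. At an unadjusted p under 0.05 there were 12 lower and 2 higher. By the FDR alone, 11 were lower and 2 higher, against 36.5% and 30.7% of all tested genes. limma-voom on recovered reads called 5 lower and 1 higher. The 5 genes were Sqstm1, which encodes the cargo receptor p62, and Map1lc3a, Gabarap, Gabarapl1 and Gabarapl2, which encode the ubiquitin-like proteins of the autophagosome membrane. Map1lc3a was at 39.1, 43.9 and 50.3 FPKM in OEx and at 169, 159 and 186 FPKM in Ctrl mice, with -1.93 as its log2 fold change (limma FDR 4.32e-05). Sqstm1 and Gabarap had log2 fold changes of -1.39 and -1.64. Gabarapl1, at -1.02, was called in only 2 of the 6 fits with a mouse left out. On library totals, Scpep1, Neu1, Lamtor2 and Map1lc3a were still called lower, the only 4 of the 100 genes, and 18 were called higher, where 4.58% and 30.5% of all tested genes were.

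**Figure D5:**
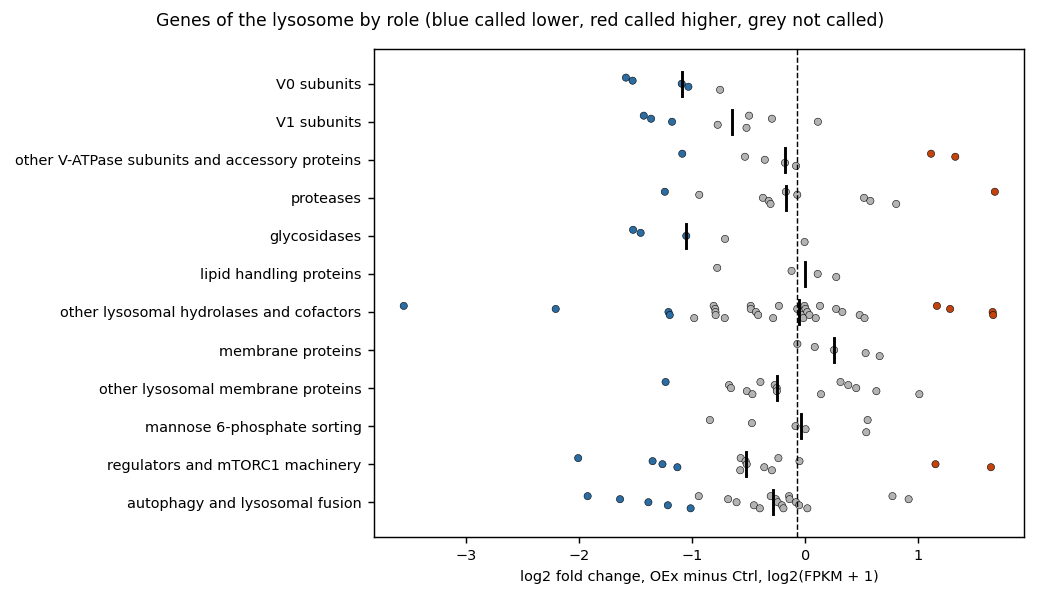
Log2 fold change between OEx and Ctrl mice for the tested genes of 12 groups of lysosomal, V-ATPase and autophagy genes, 1 point per gene, with thick lines at the group medians and a dashed line at the median of all tested genes. The V0 group had its median at -1.09 and the glycosidases at -1.05, whereas the medians of the proteases and the lipid handling genes were -0.17 and -0.01.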

How the data were processed

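RNA-seq of the anterior prostate of 3 OEx and 3 Ctrl mice was analysed from 6 tables, 1 per mouse. The authors deposited FPKM values per gene symbol, made with a pipeline called in-house. The submitters' processing notes name CASAVA, HISAT2 2.0.5, featureCounts 1.5.0-p3 and StringTie 1.3.3b, while the build, the annotation, the use of strand and the library size behind the FPKM are not given in the sources used here. Rows were matched by symbol to the GENCODE annotation of GRCm38, which placed 53710 of 55076 rows. With its exon lengths, whole reads were recovered for 96.9% to 97.5% of the values under 1000 reads, within 0.05 reads, and in all mice for 37 of the 39 genes (not Npc1 and Lipa). The 39 genes had 21 reads or more in every mouse where reads were recovered, and 3 reads correspond to a CPM of 0.161 to 0.203, a floor that covers counting error only.

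FPKM are not counts, so the comparison used limma (version 3.58.1, R 4.3.3). The response was log2(FPKM + 1), group was the only term, and eBayes was run with a trend. Rows averaging under 1 FPKM were left out, which kept 12833. Fold changes on this scale are understated for low genes. Genes were called with a Benjamini-Hochberg FDR under 0.05 over all tested rows and a fold change over 2. The step was tested on simulated data. Exact permutation tests were two-sided. Ratios and shares were computed within each mouse, and the gene pairs of the ratios were chosen after their values were seen. Alternatives were other scalings, filters (among them 10 reads in every mouse) and pseudocounts, limma-voom on the recovered reads, a replicate block and each mouse left out. The other steps ran in Python 3.11.15 (pandas 2.3.3 and numpy 2.4.6 for tables, scipy 1.17.1 for intervals, matplotlib 3.10.9 for plots).

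The 39 genes and the lists of pathway and marker genes were chosen with earlier results of these data known. All 39 genes are named, with the value of every mouse for called genes, the 3 most abundant genes and Tfeb. Of the other pathway lists, called genes and V-ATPase isoforms are named, and of the marker lists, genes that moved with a result. The values of every mouse of other genes, and Lamtor3, Tfe3, Mitf and 9530053A07Rik, were chosen after they were seen.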

Additional observations from a re-analysis of the deposited data

How the results depend on the processing

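The counts of called genes depended on the scaling between mice and on the fold criterion. Of the 39 genes, 11 were called lower, and the count was 0 on library totals, 6 on library totals without the 20 most abundant genes, 6 with upper quartile scaling and 21 without the fold criterion. The count of higher genes, 1, became 6, 2, 2 and 6 under these settings, and 0 without a filter on low values or with the replicate block. For V-ATPase subunits the 7 lower genes became 0, 4, 4 and 12. For the other 26 genes the 4 lower genes became 0, 2, 2 and 9, and the 1 higher gene became 6, 2, 2 and 6, and 0 without a filter or with the replicate block. For the 100 other pathway genes, 16 lower became 4, 8, 8 and 47, and 8 higher became 18 on library totals and 16 without the fold criterion. With each mouse left out in turn, 10 to 11 of the 39 genes were lower and 0 to 1 higher, with 6 to 7 V-ATPase genes lower, and 15 to 18 of the other pathway genes were lower and 7 to 11 higher. The cause of the difference between scalings was not tested. Over all tested genes the median was -0.08, and it was 0.56, 0.21 and 0.15 under the 3 other scalings (log2).

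The sign of the log2 fold change changed for 12 genes on library totals, none of them called: Lamp1 (0.71), Ctsa (0.43), Ctsf (0.46), Ctsk (0.43), Ctsl (0.67), Ctsz (0.39), Gaa (0.76), Glb1 (0.061), Asah1 (0.62), Atp6v1c1 (0.41), Atp6v1d (0.22) and Atp6v1h (0.18). Without the 20 most abundant genes it changed for Lamp1 (0.27), Ctsa (0.0055), Ctsf (0.024), Ctsk (0.082), Ctsl (0.25), Gaa (0.33), Asah1 (0.20) and Atp6v1c1 (0.012), and with upper quartile scaling for Lamp1 (0.21), Ctsk (0.045), Ctsl (0.19), Gaa (0.27) and Asah1 (0.15). With a mouse left out it changed for Lamp1 (-0.21 to 0.023), Ctsk (-0.58 to 0.51), Ctsl (-0.13 to 0.022) and Gaa (-0.21 to 0.11), with Ctsk at 0.51 without OEx replicate 3 and 0.14 without Ctrl replicate 3.

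Same-numbered mice did not deviate together (r -0.194, -0.189 and -0.307). Deviations within a group of 3 depend on each other, and replicate 3 stood apart in both groups. These correlations therefore cannot show whether the numbers pair the mice. With the replicate block, only the call of Ctss was lost among the 39 genes (limma FDR 0.0606), as it was without a filter (limma FDR 0.0609). The values relative to the median of all genes, and the separate statement of the fits without OEx replicate 3 and Ctrl replicate 3, were chosen after seeing the data. A pseudocount of 0.1, a filter of 10 reads and limma-voom on recovered reads lost no call of the 39 genes that they could test. Depth limits Ctsk most, with 21 reads in the lowest mouse, and Npc1 and Lipa had no recovered reads.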
